A study of Mus musculus with 10 samples.

Results

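The Hippo pathway limits organ size and liver growth. Its kinases Stk3 and Lats1 or Lats2, helped by the scaffold Sav1, phosphorylate the coactivators Yap1 and Wwtr1 (also called TAZ) and keep them out of the nucleus. Coactivators that escape enter the nucleus and bind TEAD factors such as Tead1 on DNA, where they raise target genes that include Ccn1, Ccn2 and Ankrd1. In the liver the pathway is known for holding hepatocyte growth in check, and Yap1 and Ccn2 are also known from the fibrosis that follows injury.

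These 10 genes were chosen by name, and all 10 were found among 21613 named genes with a probe on the arrays. The accession of each probe was matched to the RefSeq mouse gene table, so that Ccn1 (older name Cyr61), Ccn2 (Ctgf) and Wwtr1 (Taz) were not matched by an ambiguous older symbol. They had 13 probes, 8 of the genes had 1 probe each, and 12 probes were bright enough to keep. All 10 genes were among the 14531 named genes tested. Ankrd1 passed the brightness filter through its CCl4 group alone.

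Liver RNA of 10 male mice was measured, 1 array per mouse. The 6 metformin plus CCl4 mice were TG221 animals on the B6D2F2 background, which carry a miR-221 transgene, and they were given carbon tetrachloride (CCl4, a liver toxin) at 20% by volume in olive oil by gavage, 3 times a week for 14 weeks from 4 to 6 weeks of age. From 3 weeks after the first dose they also had 300 mg/kg of metformin, a biguanide used against diabetes, by mouth each day. The 4 CCl4 mice had the same transgene, background and CCl4 without metformin, and livers of both groups were taken at an end point of 24 weeks. All mice thus carry the transgene and the injury, and no uninjured or non-transgenic liver was analysed here. The promoter that drives the transgene is not given in the sources used here, and the labels name both liver and hepatocellular carcinoma. All 8 hepatocyte markers examined, Alb and Hnf4a among them, were well above background on all 10 arrays.

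Values are log2 spot intensities minus the log2 of the array's 75th percentile intensity, so 0 is the 75th percentile of the array and 1 unit is a doubling. They compare mice for 1 probe, not 1 gene with another. The 75th percentile intensity was 237 to 363 over the 10 arrays, between 51.2% and 54.9% of probes were well above background, and no spot was saturated. Across genes, pairs of arrays correlated at 0.984 to 0.993 when both came from one group, and at 0.963 to 0.976 when they came from different groups. The metformin plus CCl4 arrays were all on one slide scanned on one day and the CCl4 arrays all on another slide scanned on another day, so slide, scan day and metformin cannot be told apart. These are bulk livers, in which fewer cells of a type and less RNA per cell cannot be told apart either.

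The promoters of 3 members are shown because TEAD factors are known to bind GGAATG, and these genes are the coactivator that passed the test and 2 of its known targets. The windows run from 250 bases before to 50 bases after the RefSeq transcript start, 5′ to 3′ on the gene's strand, in build GRCm38.p6. Capitals mark GGAATG or its reverse complement, CATTCC. The Yap1 window is chr9:8004547-8004846 on the minus strand, the Ccn1 window chr3:145649936-145650235 on the minus strand and the Ankrd1 window chr19:36119795-36120094 on the minus strand.
Yap1: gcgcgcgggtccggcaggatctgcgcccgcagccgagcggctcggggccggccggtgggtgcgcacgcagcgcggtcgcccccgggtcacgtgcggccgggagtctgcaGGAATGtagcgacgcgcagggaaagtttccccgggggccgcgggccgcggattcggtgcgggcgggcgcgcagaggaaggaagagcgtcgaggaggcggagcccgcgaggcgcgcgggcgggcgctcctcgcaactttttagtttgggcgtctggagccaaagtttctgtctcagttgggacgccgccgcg
Ccn1: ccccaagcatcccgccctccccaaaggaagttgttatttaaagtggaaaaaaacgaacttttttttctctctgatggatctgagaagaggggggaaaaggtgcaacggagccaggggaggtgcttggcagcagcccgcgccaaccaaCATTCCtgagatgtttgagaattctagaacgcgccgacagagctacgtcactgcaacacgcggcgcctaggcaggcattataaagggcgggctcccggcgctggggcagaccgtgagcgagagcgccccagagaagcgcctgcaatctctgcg
Ankrd1: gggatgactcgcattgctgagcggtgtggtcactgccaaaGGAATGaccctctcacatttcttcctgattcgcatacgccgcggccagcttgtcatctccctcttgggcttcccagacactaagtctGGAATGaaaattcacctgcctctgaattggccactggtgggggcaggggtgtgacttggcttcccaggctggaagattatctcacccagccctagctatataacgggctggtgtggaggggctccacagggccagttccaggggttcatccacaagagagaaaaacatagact

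The motif, searched on both strands with overlaps allowed, began 141 bases before the start of Yap1, 103 bases before that of Ccn1, and 210 and 123 bases before that of Ankrd1. Of 32851 RefSeq promoters of this length, 14.7% held it at least once and 1.36% at least 2 times, and of 27025 genes 16.6% had a window that held it. The table had 9 windows for 7 of the 10 members, and 7 of the 9 held the motif, with the 2 Wwtr1 windows overlapping each other. By gene, 6 of these 7, namely Yap1, Wwtr1, Lats2, Sav1, Ccn1 and Ankrd1, had a window with the motif. The Lats1 window had no match. Ccn2, Tead1 and Stk3 were not in the table. A match is a run of letters and was not tested as a binding site.

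The comparison asks which Hippo pathway genes differ between livers of CCl4-treated TG221 mice with and without metformin. With metformin Yap1 rose 1.65-fold and Tead1 was 2.52-fold lower, and the other 8 members did not pass the test. Members that passed were thus 1 higher and 1 lower of 10, or 20% of them. Over all 14531 named genes, 47.4% passed at an adjusted p below 0.05 in limma, 27.7% higher and 19.7% lower. The median log2 fold change was -0.012 over the 10 members and 0.073 over all genes tested. The groups did not overlap in 2 members, Yap1 and Tead1, against 35.9% of all tested genes. A call together with no overlap was met by these same 2 members and by 35.2% of all tested genes.

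The direction of small changes depended on the scaling. Scaled to spike-in transcripts in place of the 75th percentile, the median gene had a log2 fold change of -0.48, and the share of calls that were higher was 7.74% in place of 58.5%. On that scale 5 members, Ankrd1 among them, were lower and 0 higher in limma. Of all tested genes 49.1% were called there, most of them lower. For the members, a log2 change relative to the median gene is the same on both scales, for example 0.65 for Yap1 and -1.41 for Tead1.

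**Figure D1:**
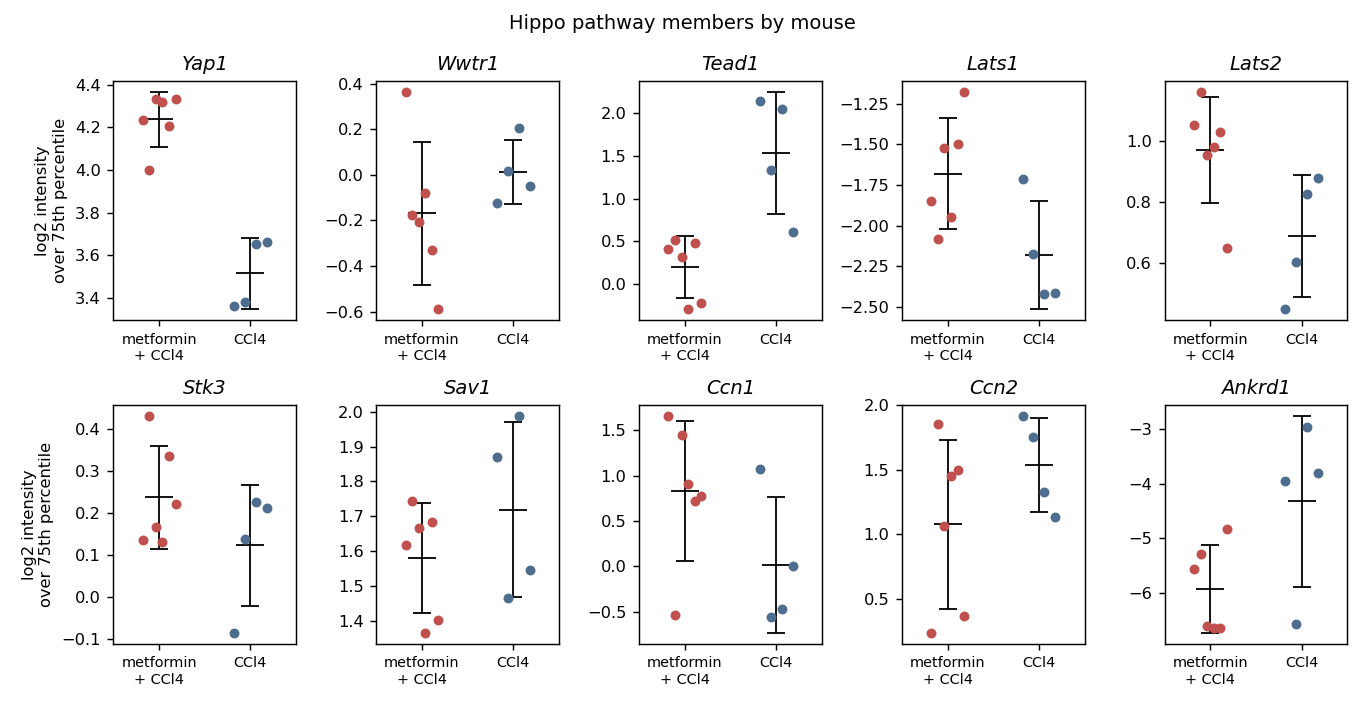
Log2 intensity of each member relative to the array's 75th percentile, 1 point per mouse, with the group mean and SD as bars (6 metformin plus CCl4 mice on the left of each panel, 4 CCl4 mice on the right). Each panel has its own vertical scale. The groups do not overlap in Yap1 (higher with metformin) and Tead1 (lower), and they overlap in the other 8; scaled to spike-ins the Yap1 difference was 0.17 and did not pass the test.

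Of the coactivators, Yap1 was higher with metformin. Its level with metformin ran from 4.00 to 4.33 with a median of 4.28 in 6 mice, against 3.36, 3.38, 3.65 and 3.66 in the 4 CCl4 mice. Every metformin mouse lay above every CCl4 mouse, and the SD within groups was 0.13 with metformin and 0.17 with CCl4. The log2 fold change was 0.72 ± 0.10 (SE, 95% interval 0.49 to 0.95, adjusted p = 3.81e-04 in limma, n = 6 and 4). It was 0.67 to 0.77 when any 1 mouse was left out. With spike-in scaling it was 0.17 and no longer called (adjusted p = 0.486 in limma, range over 22 alternatives 8.97e-05 to 0.486). The Yap1 probe is the only member probe in the authors' deposited table of 4595 quantile-normalized probes, filtered per its header at FDR below 0.01 and a fold above 1.5, and that table gives a difference of 0.62 between its group means.

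Wwtr1, the paralog of Yap1 that binds the same TEAD factors, did not pass the test. It ran from -0.59 to 0.36 with a median of -0.19 in the metformin mice, against -0.12, 0.015, 0.20 and -0.051 in the CCl4 mice. The groups overlapped, and the metformin mice spread more widely, with an SD of 0.31 against 0.14 in CCl4 mice. Its log2 fold change was -0.18 ± 0.16 (SE, 95% interval -0.54 to 0.18, adjusted p = 0.389 in limma), and on the spike-in scale it passed the test at -0.73 (adjusted p = 0.0281 in limma, range over 22 alternatives 0.0281 to 0.892).

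The difference between the paralogs was compared within arrays, where the scaling cancels. Yap1 minus Wwtr1 averaged 4.41 ± 0.36 in metformin mice and 3.50 ± 0.15 in CCl4 mice (SD, n = 6 and 4), a difference of 0.90 log2 units between groups. The pair was chosen after the values of both genes were seen, so this is a description without a test. The lowest metformin mouse, at 3.87, lay above the highest CCl4 mouse, at 3.71. Left-out mice gave 0.80 to 1.01, and the first slide row alone, with 2 metformin mice, gave 0.52.

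Tead1, the DNA-binding partner of both coactivators, was lower with metformin. Its level was -0.30 to 0.52 with a median of 0.36 in the 6 metformin mice, against 2.14, 1.34, 2.06 and 0.61 in the 4 CCl4 mice. The groups did not overlap, with metformin mice 4 and 6 lowest and CCl4 mouse 4 next to the metformin range. The log2 fold change was -1.34 ± 0.30 (SE, 95% interval -2.01 to -0.66, adjusted p = 0.00500 in limma). With any 1 mouse left out it ran from -1.64 (without CCl4 mouse 4) to -1.13 (without CCl4 mouse 1). It passed each time (adjusted p at most 0.0177 in limma).

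A second, dimmer Tead1 probe for the same accession differed by -1.47. It was well above background on 3 of 6 metformin and 4 of 4 CCl4 arrays and was kept through its CCl4 group alone, so its value is given only as a description. The third probe was above background on no array. A fit with the row of the slide as covariate rests on the 2 metformin arrays of the first row, and there Tead1 was at -1.07 and lost its call (adjusted p = 0.0723 in limma). With the first row alone adjusted p was 0.112 (range over 22 alternatives 3.65e-04 to 0.112). Yap1 minus Tead1 within arrays averaged 4.04 ± 0.46 with metformin and 1.98 ± 0.79 with CCl4 (SD), a difference of 2.06, and 1.68 with the first slide row alone. This pair joins the member that rose with the one that fell, so its difference restates their changes and carries no test.

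The kinases Lats1 and Lats2, which phosphorylate the coactivators, had higher means with metformin but did not pass. Lats1 ran from -2.09 to -1.18 with a median of -1.69 in the metformin mice, against -1.71, -2.18, -2.42 and -2.42 in the CCl4 mice. CCl4 mouse 1 reached into the metformin range, and the other 3 CCl4 mice lay below all metformin mice. The log2 fold change was 0.50 ± 0.20 (SE, 95% interval 0.056 to 0.95, adjusted p = 0.0641 in limma). It passed without CCl4 mouse 1 (0.66, adjusted p = 0.0232) or metformin mouse 2 (0.58, adjusted p = 0.0380). On the spike-in scale it was -0.046 (range of adjusted p over 22 alternatives 0.0232 to 0.845).

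Lats2 ran from 0.65 to 1.16 with a median of 1.01 with metformin, against 0.45, 0.60, 0.83 and 0.88 with CCl4. Metformin mouse 6 alone lay within the CCl4 range. The fitted log2 fold change was 0.28 ± 0.12 (SE, 95% interval 0.013 to 0.56, adjusted p = 0.0812 in limma), and 0.35 without metformin mouse 6 (adjusted p = 0.0275). A second Lats2 probe, made for another accession of the gene, was well above background on 5 of 6 metformin and on 0 of 4 CCl4 arrays, so only a bound can be given, taken as the mean of the 6 metformin mice over the higher of the lowest signal well above background and the own signal on each CCl4 array. It was at least 1.12-fold higher with metformin, with overlapping groups. The second probe was kept through its metformin group alone. The mean of both probes, at 0.57 (adjusted p = 0.0109 in limma), includes that probe's background signal in CCl4 mice and is given only as a description. By the first probe alone, Lats2 passed at 0.32 with array weights (adjusted p = 0.0348 in limma), and scaled to spike-ins it was at -0.26 (adjusted p = 0.359). Over 22 alternatives, with the mean of both probes among them, adjusted p ranged from 0.0109 to 0.359. Lats1 minus Lats2 within arrays differed by 0.22 between groups (exact permutation p = 0.529, adjusted p = 0.529 over 5 pairs of members).

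Stk3, the kinase upstream of the Lats kinases, showed the smallest difference among the members with scaling to the 75th percentile. It was 0.13 to 0.43 with a median of 0.19 in metformin mice, against -0.086, 0.14, 0.23 and 0.21 in CCl4 mice. The groups overlapped, with CCl4 mouse 1 below all metformin mice and metformin mice 2 and 5 above all CCl4 mice. The log2 fold change was 0.11 ± 0.098 (SE, 95% interval -0.10 to 0.33, adjusted p = 0.366 in limma), and scaled to spike-ins it was -0.43 without a call.

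Sav1, the scaffold that joins Stk3 to the Lats kinases, was 1.36 to 1.74 with a median of 1.64 in metformin mice, against 1.87, 1.47, 1.99 and 1.55 in CCl4 mice. CCl4 mice 1 and 3 lay above all metformin mice and the other 2 within their range. Its log2 fold change was -0.14 ± 0.13 (SE, 95% interval -0.42 to 0.15, adjusted p = 0.406 in limma). Scaled to spike-ins Sav1 passed at -0.69 (adjusted p = 0.0178, range over 22 alternatives 0.0178 to 0.890). Stk3 minus Sav1 differed by 0.25 within arrays (exact permutation p = 0.105, adjusted p = 0.161).

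Of the target genes, Ccn1 and Ccn2 encode related matricellular proteins that cells secrete into the matrix. Ccn1 ran from -0.53 to 1.66 with a median of 0.84 in the metformin mice, against 1.08, -0.55, -0.46 and 0.0074 in the CCl4 mice. Metformin mouse 2 was as low as CCl4 mice 2 and 3, and CCl4 mouse 1 lay within the upper part of the metformin range. The SD was 0.77 with metformin and 0.75 with CCl4, and the log2 fold change of 0.81 ± 0.44 (SE, 95% interval -0.15 to 1.78) did not pass (adjusted p = 0.152 in limma). It passed without metformin mouse 2 (1.09, adjusted p = 0.0305) or without CCl4 mouse 1 (1.17, adjusted p = 0.0477). On the spike-in scale it was 0.26 (range of adjusted p over 22 alternatives 0.0305 to 0.585).

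Ccn2 lay at 0.24 to 1.86 with a median of 1.26 in the metformin mice, against 1.92, 1.76, 1.33 and 1.13 in the CCl4 mice. Metformin mice 1 and 6 were low, at 0.24 and 0.37, and the groups overlapped. The fitted log2 fold change was -0.46 ± 0.33 (SE, 95% interval -1.18 to 0.27, adjusted p = 0.276 in limma), and scaled to spike-ins it passed at -1.005 (adjusted p = 0.0125, range over 22 alternatives 0.0125 to 0.493).

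Ccn1 and Ccn2 lay at opposite ends of the group in metformin mice 1 and 2, which were picked after values were seen. Mouse 1 had the highest Ccn1 and the lowest Ccn2 of its group, and mouse 2 the lowest Ccn1 and the highest Ccn2. In metformin mouse 4 both genes lay above their group medians, and in mouse 6 both lay below. Ccn1 minus Ccn2 averaged -0.25 ± 1.31 in metformin mice and -1.52 ± 0.66 in CCl4 mice (SD), a difference of 1.27. It did not pass (exact permutation p = 0.129, adjusted p = 0.161). Without metformin mouse 2 the difference was 1.70. The pair was chosen after values were seen and mouse 2 was an extreme of both genes, so that value is only a description.

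Ankrd1, which encodes an ankyrin repeat protein of muscle and injured tissue, was near the detection limit. It was well above background on 0 of 6 metformin arrays and on 3 of 4 CCl4 arrays, so only a bound can be given: it was at least 1.34-fold lower with metformin, where the bound sets the mean of the 4 CCl4 mice against, on each metformin array, the higher of the probe's own signal and the lowest signal of any probe well above background. The measured levels were -6.64 to -4.82 with a median of -6.07 with metformin, against -3.95, -6.57, -2.97 and -3.80 with CCl4. CCl4 mouse 2 was as low as the lowest metformin mice. The fitted difference did not pass (adjusted p = 0.0681 in limma, means of -5.92 with metformin and -4.32 with CCl4). Adjusted p was 0.00363 in limma without CCl4 mouse 2, 0.0281 with normexp background correction and 0.0162 on the spike-in scale (range over 18 alternatives 0.00363 to 0.402). Since the metformin values are background and the probe was kept through its high group, the bound supports no change. For the same reason these p-values are given as descriptions of the settings.

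Members were also compared with each other across mice after each group's mean was subtracted, in 45 pairs. The strongest pair was Lats1 and Lats2, which were negatively related (Pearson r = -0.884, exact within-group permutation p = 0.00139, adjusted p = 0.0625; Spearman rho = -0.794, permutation p = 0.0109, adjusted p = 0.188; n = 10), with r = -0.642 after the 2 mice farthest from the Lats1 median were left out. No pair passed after adjustment. Ccn1 and Ccn2 had r = -0.399 (permutation p = 0.298, adjusted p = 0.908) and rho = -0.321 (permutation p = 0.370, adjusted p = 0.915), and r = -0.412 without the 2 farthest mice. As a description, of 14524 genes the ones most like Yap1 across the 10 arrays, after group means were subtracted, were Napepld, Cd1d1 and Poc1b (r = 0.929, 0.922 and 0.914). For Ccn1 they were Siah2, Cpeb4 and Ankrd61 (r = 0.958, 0.945 and 0.930). For Ccn2 they were Ptpmt1, Gm35696 and Vamp2 (r = 0.936, 0.924 and 0.917). All mice of a group share a slide, and so many genes were searched that values of this size carry no test.

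Around the members, further genes of the pathway were read from the same fit: 57 genes in 3 lists, all with a probe, of which 46 were tested. Of these 46, 18 fell, 10 rose and 18 did not pass, or 60.9% called against 47.4% of all genes. Since the lists were chosen with earlier results of these data known, these shares are a description without a test. Those that fell include Ptpn14, which was kept through its CCl4 group alone. The lists share Ptpn14 and Amotl2. The other called genes outside the rule for naming, given in each list below as such, were chosen after their values were seen.

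**Figure D2:**
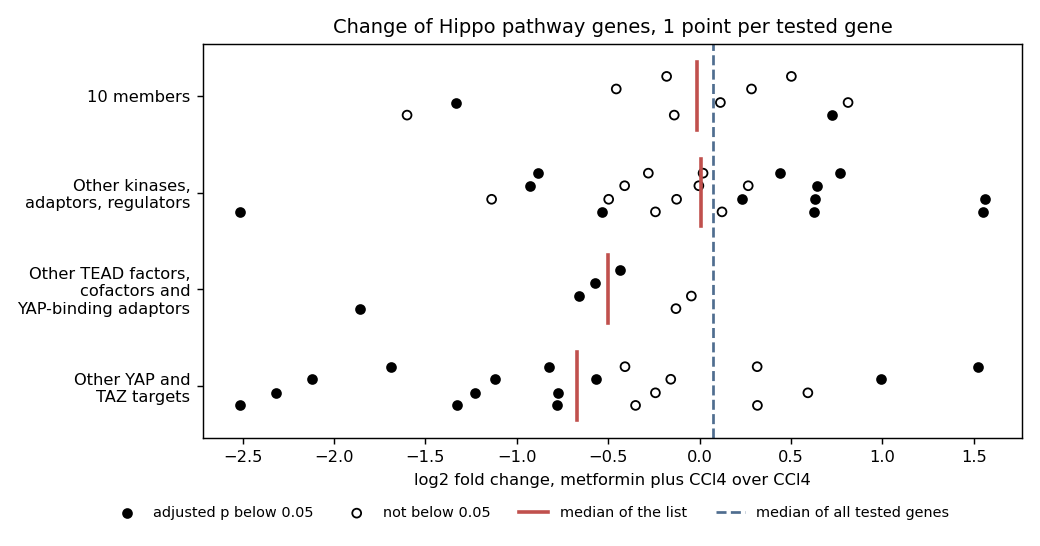
Log2 fold change of each tested gene of the pathway, metformin plus CCl4 over CCl4, 1 point per gene, with filled points for an adjusted p below 0.05 in limma; the red bar is the list's median and the dashed line the median of all tested genes (0.073). The median of the YAP and TAZ targets is -0.67, that of the mixed list of TEAD factors, cofactors and YAP-binding adaptors -0.50, and those of the members and of the other kinases and regulators lie near 0; scaled to spike-ins the 4 medians, all at or below -0.54, are lower by the same amount.

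Of 22 tested kinases, adaptors and upstream regulators outside the members, 8 rose and 4 fell, 10 did not pass, with a median log2 fold change of 0.0076. That is 54.5% called, against 47.4% of all tested genes (27.7% higher and 19.7% lower). Scaled to spike-ins 2 were higher and 13 lower, where 49.1% of all tested genes were called, most of them lower. Amot, which encodes angiomotin, a junctional protein that holds YAP in the cytoplasm, ranged from 1.34 to 1.74 with a median of 1.61 in metformin mice, against -0.25, -0.0029, -0.014 and 0.28 in CCl4 mice. The groups were far apart, and the log2 fold change was 1.56 ± 0.12 (SE, adjusted p = 2.16e-05 in limma; 1.01 after scaling to spike-ins, where it passed). Stk38l, a kinase of the same family as the Lats kinases, rose by 1.55 ± 0.27 (SE, adjusted p = 0.00110), with another probe at 1.35 and a dimmer one at 0.29; with the first slide row alone its adjusted p was 0.0502.

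Wwc1, the adaptor Kibra that activates the Lats kinases, was lower. It lay at 1.33 to 1.94 with a median of 1.79 in metformin mice, against 2.47, 2.55, 2.53 and 2.93 in CCl4 mice, and its log2 fold change was -0.88 ± 0.14 (SE, adjusted p = 6.88e-04 in limma). Its relative Wwc2 went the other way, at 0.77, but scaled to spike-ins that was 0.22 and not called. Ptpn14, a phosphatase that binds YAP and is itself a YAP target, had a log2 fold change of -2.51 ± 0.54 (SE, adjusted p = 0.00456 in limma, n = 6 and 3, since the spot on CCl4 array 4 was flagged as an outlier and dropped). It was well above background on 3 of 6 metformin arrays and 3 of 4 CCl4 arrays, so it passed the brightness filter through its CCl4 group alone, where it is high. With normexp it was at -0.97, and its place among the genes counted as lower, in this list and among the targets, supports nothing. Dchs1, a large cadherin upstream of the pathway, was at -0.93 ± 0.26 (SE, adjusted p = 0.0150), a call lost when the slide row was a covariate (-0.52, adjusted p = 0.223) and with the first row alone (adjusted p = 0.159).

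Mob1b, Taok1, Limd1, Dlg5 and Scrib were also called, higher at 0.63, 0.64, 0.63, 0.44 and 0.23. Scaled to spike-ins these 5 were at 0.079, 0.093, 0.080, -0.11 and -0.31 and not called. Scrib lost its call in 14 of 22 alternatives besides its change of sign. Mob1b and Taok1 encode an activator of the Lats kinases and a kinase upstream of Stk3. Mob1a, Frmd6 and Amotl1 were too dim to be tested. The kinase Stk4, the paralog of Stk3, differed by 0.12 (95% interval -0.19 to 0.44) and the upstream regulator Nf2 by -0.0039 (95% interval -0.30 to 0.29), and neither was called.

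A mixed list held TEAD factors, their Vgll cofactors and adaptors that bind phosphorylated YAP. Of its 6 tested genes 4 fell, 0 rose and 2 did not pass, with a median of -0.50. That is 66.7% called, against 47.4% of all tested genes (27.7% higher and 19.7% lower). The adaptors Ywhaz and Ywhab made up 2 of the 4, and Tead2 and Vgll4 the others. In this list of 10, Tead4, Vgll1, Vgll2 and Vgll3 were too dim to be tested. Ywhaz and Ywhab, phosphoserine-binding adaptors that hold phosphorylated YAP in the cytoplasm, had log2 fold changes of -1.86 ± 0.15 and -0.66 ± 0.084 (SE, adjusted p = 2.80e-05 and 2.03e-04 in limma). Ywhaz lay at 0.076 to 0.83 with a median of 0.56 in metformin mice, against 2.24, 2.49, 2.66 and 2.22 in CCl4 mice. Other Ywhaz probes differed by -1.28 and 0.0088, so its probes disagree. Tead2 and Vgll4 were lower at -0.43 and -0.57, and their calls were lost in 16 and 7 of 22 alternatives. Tead3 was at -0.13 and Ywhaq at -0.045, neither called.

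Of 20 tested YAP and TAZ targets outside the members, 11 fell, 2 rose and 7 did not pass, and their median was -0.67. That is 65% called, against 47.4% of all tested genes (27.7% higher and 19.7% lower). Scaled to spike-ins 15 were lower and 1 higher, where 49.1% of all tested genes were called, most of them lower. Tgm2, the crosslinking enzyme tissue transglutaminase, ran from 4.59 to 5.04 with a median of 4.82 in metformin mice, against 7.43, 6.80, 6.87 and 6.72 in CCl4 mice. The groups were apart by more than the range of either, and Tgm2 was 4.35-fold lower (log2 fold change -2.12 ± 0.15 SE, adjusted p = 1.95e-05 in limma; -2.39 by a second probe).

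Gadd45a, a stress and DNA damage response gene, was at -1.32 to 1.20 with a median of -0.32 in metformin mice, against 1.56, 1.60, 2.03 and 1.39 in CCl4 mice. Metformin mice 1 and 3 came close to the CCl4 mice. Its log2 fold change of -1.69 ± 0.45 (SE, adjusted p = 0.0118 in limma) was not called when the slide row was a covariate (-1.20, adjusted p = 0.150). Thbs1, the matrix protein thrombospondin, had a log2 fold change of -1.33 ± 0.30 (SE, adjusted p = 0.00470), and -0.55 with normexp. F3, the coagulation starter tissue factor, went against the list. It was at 0.66 to 1.35 with a median of 0.90 in metformin mice, against 0.10, -1.22, -0.53 and -0.67 in CCl4 mice, and rose by 1.53 ± 0.24 (SE, adjusted p = 5.92e-04; 0.98 after scaling to spike-ins, where it passed).

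The other called targets were Nuak2, a kinase, at 0.99 (0.44 and not called after scaling to spike-ins), and Gadd45b, Igfbp3, Tgfb2, Axl, Arhgef17, Ccdc80 and Asap1 at -2.32, -1.23, -1.12, -0.83, -0.78, -0.77 and -0.57. A second Asap1 probe differed by 0.59, against the first, and the mean of both was 0.012 and not called. Tgfb2 was dim, well above background on 5 of 6 metformin arrays, and was at -0.48 with normexp and -0.65 by a second probe. Gadd45b lost its call without CCl4 mouse 1 (-1.89, adjusted p = 0.0540 in limma). With the slide row as a covariate, Nuak2, Gadd45b, Igfbp3, Axl and Ccdc80 lost theirs. Birc5, an inhibitor of cell death, was at -0.41 and Amotl2, a close relative of Amot, at -0.24, neither called. Myof, Fjx1, Foxf2 and Areg were too dim to be tested.

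**Figure D3:**
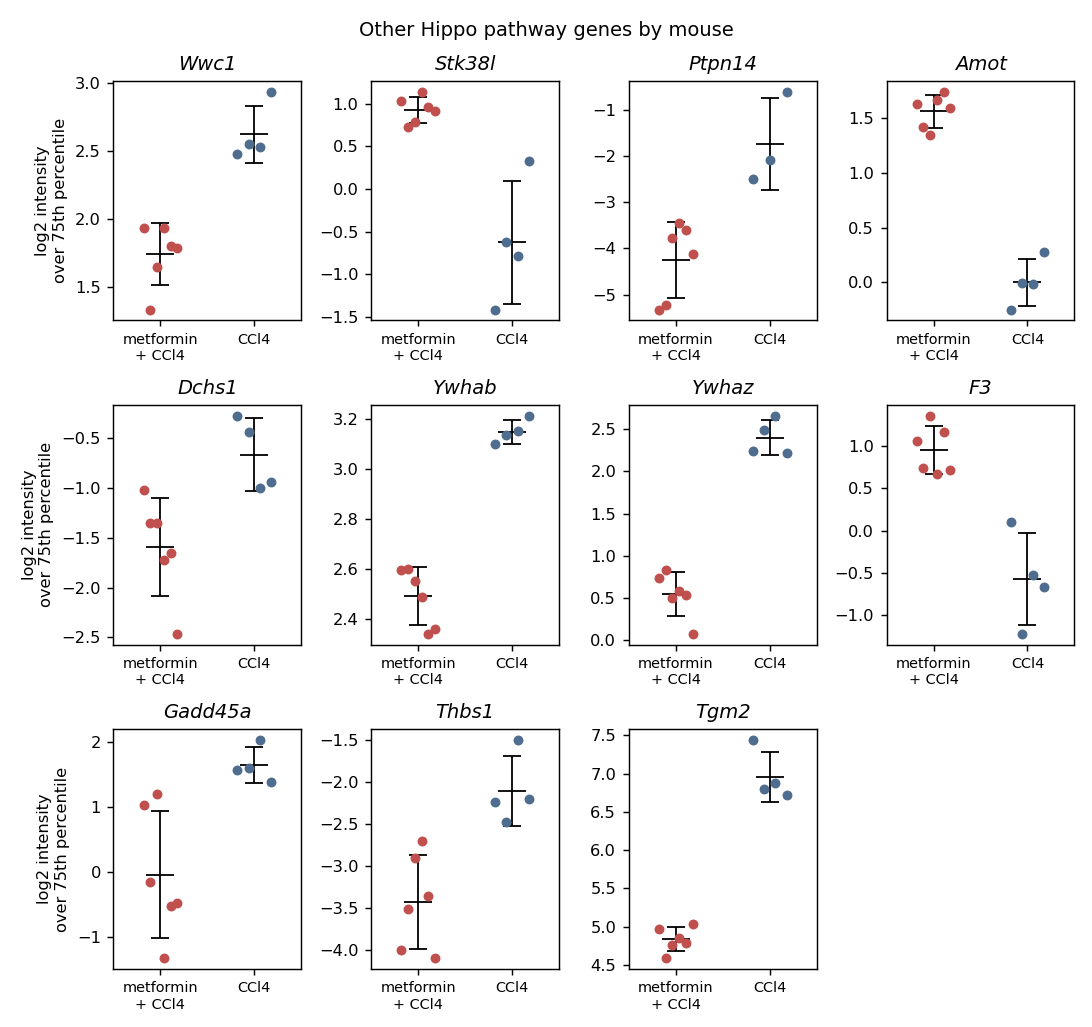
Log2 intensity relative to the array's 75th percentile of the 11 further pathway genes named by the rule, 1 point per mouse, with the group mean and SD (6 metformin plus CCl4 mice on the left of each panel, 4 CCl4 mice on the right; 3 for Ptpn14). Each panel has its own vertical scale. Amot, Stk38l and F3 are higher with metformin and the other 8 lower, with no overlap of the groups, which the rule required; these 11 directions hold after scaling to spike-ins.

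Markers of 5 cell types were read from the same fit, in which 47.4% of all tested named genes were called, 27.7% higher and 19.7% lower. The summed linear level of 8 stellate cell and myofibroblast markers, in multiples of the 75th percentile intensity, was 3.90 to 6.02 in metformin mice and 6.81 to 10.66 in CCl4 mice, without overlap, and 5 of the 8 fell and 0 rose. All 8 were above background on all 10 arrays, and no marker of any list was below background on all arrays. Of 8 bile duct markers 4 fell and 1 rose, with sums of 2.40 to 10.9 with metformin and 6.82 to 13.6 with CCl4. These sums rest mainly on Spp1, with mean log2 levels of 1.56 with metformin and 3.01 with CCl4. Spp1 was not called (adjusted p = 0.0564 in limma), and the means of the other bile duct markers lay below the 75th percentile in both groups. Of the bile duct markers that fell, Epcam and Krt7 were well above background on 1 and 4 of 6 metformin arrays. Both passed the filter through the CCl4 group alone. Of 8 endothelial markers 3 fell, with sums of 51.2 to 85.8 with metformin and 73.1 to 88.5 with CCl4. Of 8 macrophage markers 4 fell, with sums of 50.9 to 91.5 with metformin and 75.4 to 94.97 with CCl4. Of 8 hepatocyte markers 2 fell, with sums of 5124 to 6626 with metformin and 6163 to 7727 with CCl4. The part of these cell types in the changes of Tead1, Tgm2, Thbs1 and the other targets was not tested.

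**Figure D4:**
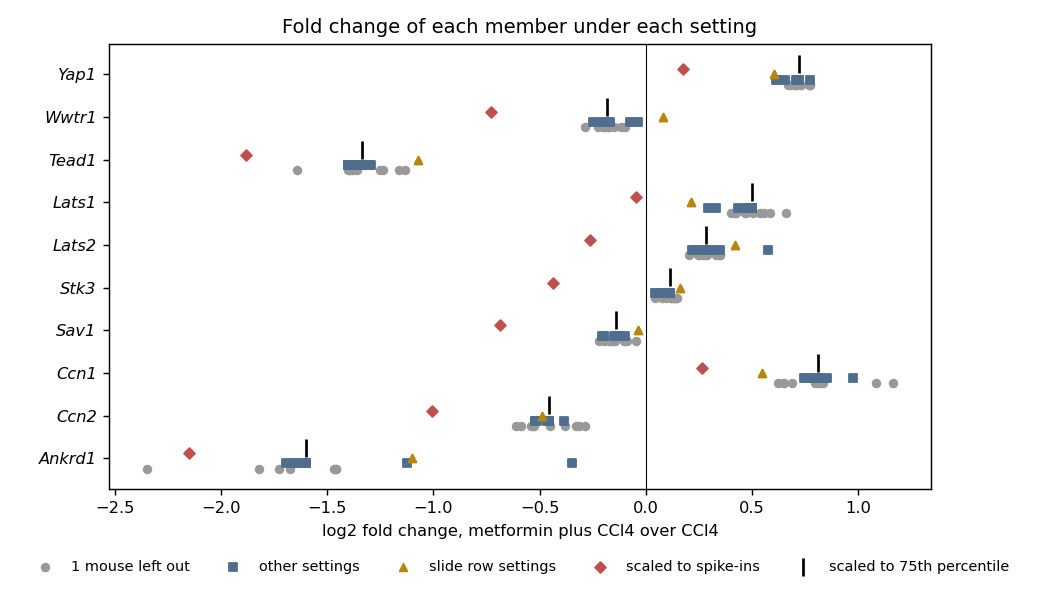
Log2 fold change of each member, metformin plus CCl4 over CCl4, under the scaling to the 75th percentile (black bar) and under each alternative (grey circles with 1 mouse left out, red diamonds scaled to spike-ins, triangles with slide row as a covariate or the first row alone, squares for other settings). Yap1 stays above 0 and Tead1 below 0 in all; scaled to spike-ins every member is lower by the same amount, which takes Yap1 to 0.17 and puts Lats1, Lats2 and Stk3 below 0.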

How the data were processed

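The arrays were Agilent 1-colour mouse expression arrays, 1 per mouse, with groups and mouse numbers from the sample titles. From each liver 100 ng of RNA was labelled, with an integrity number over 8, per the labels' protocols. The deposited intensity values come from Agilent Feature Extraction 10.7.3.1 and are linear, background-subtracted and detrended within each array but not normalized between arrays, per the file headers. The authors also deposited log2 values per mouse of 4595 probes, quantile-normalized and filtered, per that file's header. The test behind its filter is not given in the sources used here.

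Here log2 intensity was centred on each array's 75th percentile (59305 spots without controls). Flagged spots were left out and spots of a probe averaged. A probe was kept if it was well above background in 75% or more of either group's arrays, which held for 29575 of 55681 probes. Probes were named by unversioned accession through the RefSeq table of GRCm38.p6, since the arrays' grid names build mm9: 28664 probes had a symbol. The kept probe with the highest mean over 10 arrays stood for a gene, and probes without a symbol were grouped by accession. That grouping was chosen after another, with each such probe alone, had been run and its counts seen. Groups were compared by moderated two-sided tests in limma 3.58.1, run under R 4.3.3. P-values were adjusted by Benjamini-Hochberg over 22183 features, with 0.05 as the threshold, and the script was tested on simulated data. The 5 within-array pairs were compared by exact permutation over mice. They and the 45 member correlations were chosen after values were seen, and no p is given for the pairs that hold Yap1. The members and lists were chosen with earlier results of these data known. Named genes are the 10 members and, per further list, up to 5 called genes without overlap of groups and with the largest change. Of the genes counted in the lists, 1 is not reported by name here. Mouse numbers did not pair mice: same-numbered mice correlated in their deviations from the group means at -0.093, -0.11, 0.12 and 0.027. Precision is limited by having 6 and 4 arrays. Figures were drawn with matplotlib 3.10.9.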

Additional observations from a re-analysis of the deposited data

Results flagged for a closer look

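In groups of 4 or 6 mice, 3 of 75 groups checked (the members and the other called pathway genes) held 1 mouse far from the rest, where chance flags about 1 in 20. Wwc2 in metformin mouse 6 was at 1.96, with the other 5 at 2.41 to 2.55. Wwc1 in CCl4 mouse 4 was at 2.93, with the other 3 at 2.47 to 2.55. Asap1 in CCl4 mouse 2 was at 0.94, with the other 3 at 1.25 to 1.29. No member was among them.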

How the results depend on the processing

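Results of the fit were recomputed under 22 other settings, except Ankrd1 and Ptpn14 (18 each) and Tgfb2 (21). The number of tested genes called was 6883, and 4215 with slide row 1 alone, which leaves 2 metformin mice; with 1 mouse left out it was 5891 to 6645. Members called lower were 1, but 2 with normexp, 5 after spike-in scaling and 0 with slide row as a covariate or slide row 1 alone. With 1 mouse left out they were 1 or 2. Ankrd1, kept through its CCl4 group alone, was the second with normexp and without CCl4 mouse 2, and 1 of the 5. Its part in these counts supports nothing. Members called higher were 1, but 0 after spike-in scaling, 2 when probes of a gene were averaged and 2 with array weights. With 1 mouse left out they were 1 to 3. Lats2 was the second with averaged probes, and its call there rests in part on a probe kept through its metformin group alone. Other pathway genes called were 28, and 16 with slide row as a covariate, 17 with slide row 1 alone, and 24 to 28 with 1 mouse left out. Spike-in scaling reversed the sign of Lats1 (-0.046), Lats2 (-0.26), Stk3 (-0.43), Dlg5 (-0.11) and Scrib (-0.31). Slide row as a covariate and slide row 1 alone reversed Wwtr1 (0.082 in both), and slide row 1 alone reversed Lats1 minus Lats2 (-0.21). Averaging probes reversed Asap1 (0.012). Beyond the shift of scale in spike-in scaling and the loss of mice in slide row 1, the cause was not tested. An alternative added after seeing the data kept unnamed probes separate, the grouping tried first: over 25171 features 6750 tested genes and 27 other pathway genes were called, the same 2 members passed, and Tead2 lost its call (-0.43, adjusted p = 0.0502 in limma). The within-array alternatives were also added after seeing the data. With the mouse number as replicate block (8 mice), Yap1 was at 0.71 (adjusted p = 0.0117 in limma) and Tead1 at -1.30 (adjusted p = 0.0136), the share of tested genes called was 32.2% in place of 47.4%, and Mob1b, Taok1, Scrib, Tead2 and Ccdc80 lost their calls; the numbers do not pair mice. Ankrd1, Ptpn14 and Tgfb2 were left out where only probes above background on all 10 arrays were kept, and Ankrd1 without CCl4 mouse 1, 3 or 4 and Ptpn14 without CCl4 mouse 1, 2 or 3 no longer passed the filter. Signal over background limits Ankrd1, Ptpn14, Thbs1 and Tgfb2.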
